A study of Mus musculus with 5 samples.

Results

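The genes described here encode the subunits of the proteasome, and they were read in lung cells sorted from mouse pups. They are the genes whose symbol is Psma, Psmb, Psmc, Psmd or Psme followed by a number, without Psmb8 and Psmb9. Of 18194 genes with a probe set of a single symbol, 40 met that rule, and where a gene had several probe sets, that of the highest mean signal was read. The sort took GFP-positive cells from SPC-GFP lungs at postnatal day 2, from matings of that line with outbred ICR mice. GFP marks the surfactant protein C reporter, so cells without that reporter should be outside the gate. All 5 biological replicates belong to 1 group with 1 array each, so the study holds no second condition. The labels do not say whether a replicate was 1 pup or a pool, so the p-values measure only the spread between these samples.

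The proteasome is the large protease that degrades proteins tagged with ubiquitin. Its barrel-shaped core, the 20S particle, has outer rings of alpha subunits, which gate the entrance, and inner rings of beta subunits, some of which carry the active sites. A 19S cap binds the ubiquitin chain, removes it, and unfolds the substrate with a ring of ATPases before threading it into the core; other caps, the activators, open the core without ubiquitin. Cells that respond to interferon, and immune cells at rest, exchange the catalytic beta subunits for inducible ones, which favours peptides for antigen presentation. Alveolar type 2 cells secrete large amounts of surfactant protein, and misfolded surfactant protein C is a known substrate of this pathway.

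Subunit genes are known to be controlled by Nfe2l1, a membrane-bound transcription factor that binds antioxidant response elements, and by NF-Y, which binds CCAAT boxes. For that reason the 250 bases before the start of each gene were searched on both strands for TGACNNNGC, a core of the first element, and for CCAAT. Promoters were at hand for 33 of the 40 members, in 35 windows. The letters TGACNNNGC were found in 5 windows (14.3%), against 10.2% of all 32851 promoter windows and 11.7% of the 13893 windows of genes above background. CCAAT was found in 13 windows (37.1%), against 33.8% and 34.2%. No member held both motifs (0 of 33), so no matches overlapped, and 15 members held neither. Both shares therefore lay close to those of other genes. The matches to TGACNNNGC, with up to 10 bases on each side, are shown 5′ to 3′ on the strand of the gene, with the match in capitals; they belong to 2 standard catalytic subunits (Psmb5, Psmb6), an ATPase (Psmc6), a lid subunit (Psmd12) and an assembly chaperone (Psmd9).
Psmb5 (chr14:54618024-54618052, minus strand): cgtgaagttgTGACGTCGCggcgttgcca
Psmb6 (chr11:70525338-70525356, plus strand): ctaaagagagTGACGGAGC
Psmc6 (chr14:45329587-45329615, plus strand): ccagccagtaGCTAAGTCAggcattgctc
Psmd12 (chr11:107479278-107479299, plus strand): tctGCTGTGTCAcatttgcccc
Psmd9 (chr5:123228149-123228177, plus strand): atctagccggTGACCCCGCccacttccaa

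Psmb5 and Psmb11 lie next to each other on chromosome 14 in the RefSeq annotation and make alternative forms of the same catalytic subunit. Psmb5 is the broadly expressed form, and Psmb11 is known from cortical epithelial cells of the thymus. Their windows are shown because the signals differed in kind: Psmb5 lay far above background and Psmb11 below it, as described in the next paragraphs. Capitals mark TGACNNNGC in Psmb5 (chr14:54617996-54618245, GRCm38.p6, minus strand) and CCAAT in Psmb11 (chr14:54625060-54625309, plus strand); a match is only a run of letters.
Psmb5: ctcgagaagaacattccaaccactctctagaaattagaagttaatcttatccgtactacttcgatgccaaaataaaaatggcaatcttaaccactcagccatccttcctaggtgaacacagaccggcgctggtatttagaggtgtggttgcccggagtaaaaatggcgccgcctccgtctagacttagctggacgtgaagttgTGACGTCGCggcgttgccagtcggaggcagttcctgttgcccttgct
Psmb11: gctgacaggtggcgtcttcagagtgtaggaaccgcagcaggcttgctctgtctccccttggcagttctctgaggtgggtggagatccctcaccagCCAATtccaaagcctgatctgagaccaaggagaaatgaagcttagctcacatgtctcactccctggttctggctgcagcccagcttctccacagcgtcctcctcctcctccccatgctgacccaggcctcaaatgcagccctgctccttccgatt

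Nearly all subunit genes gave signals far above the background of the arrays. Background was set per array at the 95th percentile of 75 olfactory, taste and vomeronasal receptor genes and lay between 5.48 and 5.72 on the log2 scale of the deposited values. Of the 40 members 38 were called above it, against 74.7% of all 18119 genes tested (limma's one-sided moderated test, Benjamini-Hochberg adjusted p under 0.05). All 38 lay above background in each of the 5 arrays. Their means ran from 9.67 to 13.52, and the median difference from background over the 40 members was 6.76 log2 units, against 3.40 over all genes tested. The exceptions were Psma8 and Psmb11, each with a single probe set. Signals of different probe sets depend on their probes, so levels of members were not ranked between genes. Markers of cell types are ordered by mean signal in places below, and the same limit holds there.

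**Figure D1:**
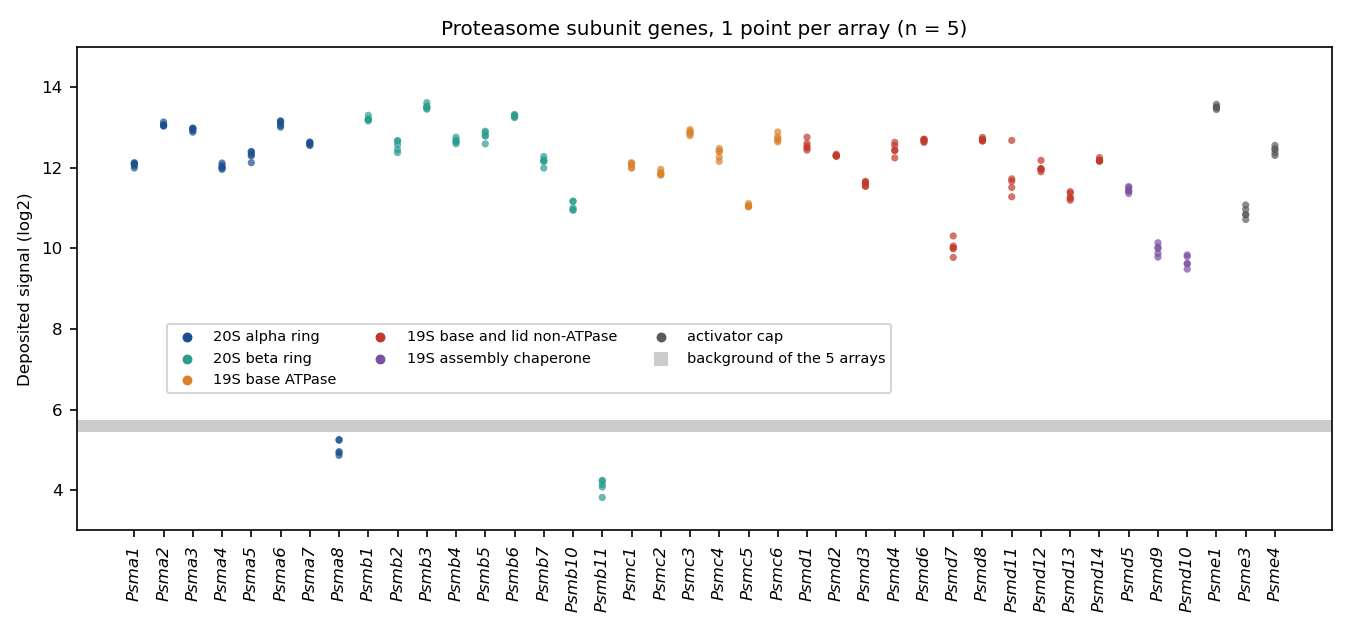
Deposited log2 signal (y axis) of the 40 subunit genes (x axis), with 1 point for each of the 5 arrays, coloured by subunit group; the grey band spans the background of the arrays, 5.48 to 5.72. Points of Psma8 and Psmb11 lie below the band, and those of the other 38 genes lie above it.

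The labels name the sorted cells alveolar type 2 cells in titles and ciliated cells in the design text. All 8 alveolar type 2 markers were called above background (means 13.69 to 14.71), and so were all 8 ciliated markers (means 7.91 to 12.63). Of the markers of other cells, 9 of 10 immune, 8 of 8 mesenchymal and 8 of 8 endothelial genes were above background. Itgam was the exception. Of all genes tested, 74.7% were called, so the counts alone do not show how much RNA came from other cells. The values of a member are those of all sorted cells together, whatever their mixture. In such bulk RNA fewer cells of a type and less RNA per cell cannot be told apart.

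In the alpha ring, 7 of 8 genes were above background. All 7 differed by at most 0.3 log2 units between the highest and the lowest array, against 36.3% of all called genes. That share was 69.5% for genes with means of 12 to 13 and 84.7% for means of 13 to 14. Psma7 encodes a constitutive alpha subunit and read 12.64, 12.63, 12.58, 12.55 and 12.62 in replicates 1 to 5. Its 5 arrays lay within 1.06-fold of each other, with a mean of 12.60 ± 0.036 (SD, n = 5). Psma8, its paralog known from the testis, read 4.96, 5.24, 4.86, 5.26 and 4.93, below the background of every array (limma adjusted p = 1). The means of Psma1 to Psma6 ran from 12.03 to 13.10, and their widest range was that of Psma5, at 0.28 log2 units or 1.21-fold.

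In the beta ring, 8 of 9 genes were above background. Psmb6, which carries the caspase-like site, read 13.29, 13.27, 13.30, 13.25 and 13.33 and was the second most even member, with a 1.06-fold range. Psmb7, which carries the trypsin-like site, read 12.16, 12.17, 12.28, 12.19 and 11.99, with replicate 5 lowest. Psmb5, which carries the chymotrypsin-like site, read 12.91, 12.80, 12.60, 12.79 and 12.88, with replicate 3 lowest. Their means were 13.29 ± 0.029, 12.16 ± 0.10 and 12.80 ± 0.12 (SD, n = 5). Replicates ranked differently in the 3 genes. Psmb11 read 3.82, 4.22, 4.25, 4.08 and 4.14, below background in every array (limma adjusted p = 1). The means of the structural subunits Psmb1 to Psmb4 ran from 12.55 to 13.52.

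Psmb10 is the inducible counterpart of Psmb7 and the only inducible catalytic subunit among the members. It read 11.17, 10.95, 10.95, 11.01 and 11.17 in replicates 1 to 5 (mean 11.05 ± 0.11, SD, n = 5), 5.51 log2 units above background (limma adjusted p = 7.73e-18). Its range was 1.16-fold, with replicates 1 and 5 high and the other 3 arrays close together. The remaining inducible subunits, Psmb8 and Psmb9, read 10.07, 9.68, 9.54, 9.79 and 9.80 and 9.34, 8.87, 7.94, 8.95 and 8.88. Both were highest in replicate 1 and lowest in replicate 3, with ranges of 1.44-fold and 2.65-fold. Psmb10 had the same highest and lowest array over its narrower range, with replicates 1 and 5 both at 11.17 and replicates 2 and 3 both at 10.95. The spread of Psmb9 did not pass the F test over all genes (adjusted p = 0.891, unadjusted p = 0.0487). The list score of immune markers was lowest in replicate 3 as well, at −0.32 against −0.04 to 0.31 in the others. Of the 10 markers 9 were above background, with a summed level of 14.96 to 15.15 over the arrays. That sum was mostly Lyz2, whose mean (14.34 ± 0.066, SD, n = 5) lay among those of the alveolar type 2 markers (13.69 to 14.71). The next markers by mean, Csf1r and Laptm5, had 12.30 and 12.10. Of the 9 markers, 5 were lowest in replicate 3. Csf1r, Cd3e, Cd79a and Lyz2 were not, and Csf1r read 12.54 there against 11.95 in replicate 1, its lowest array. The part of the immune markers in these values was not tested.

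**Figure D2:**
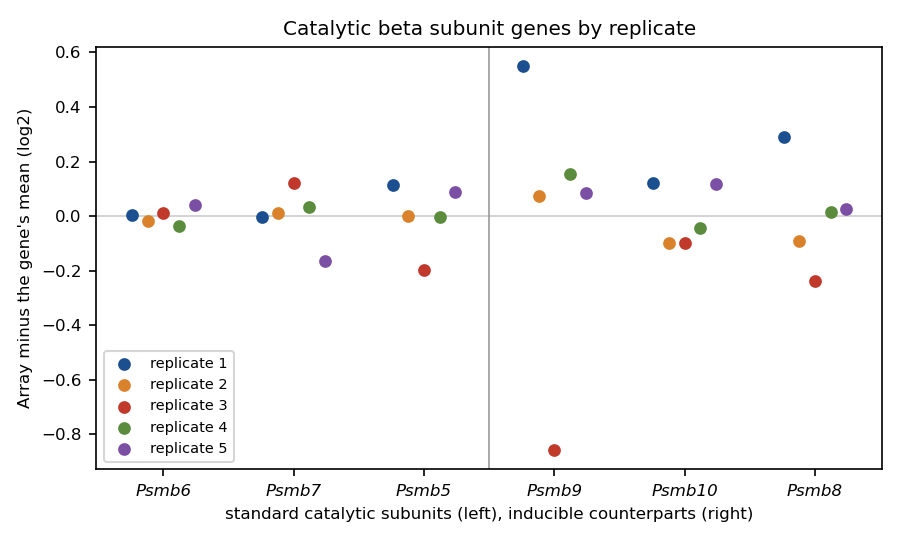
Each array's log2 signal minus the gene's own mean (y axis) for the standard catalytic subunit genes Psmb6, Psmb7 and Psmb5 (left) and their inducible counterparts Psmb9, Psmb10 and Psmb8 (right), with points coloured by replicate. Psmb9 has the widest range, 2.65-fold, with replicate 3 lowest, and Psmb6 the narrowest, 1.06-fold.

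All 6 ATPases of the 19S base were above background, with means from 11.06 to 12.87 and SDs from 0.032 to 0.13. Psmc5 was among the 3 most even members and read 11.06, 11.04, 11.05, 11.04 and 11.12, a 1.06-fold range. Replicate 5 was its highest array. Psmc4 varied most of the ATPases, between 12.16 and 12.48. In the probe sets of highest mean, 0 of 6 were lowest in replicate 3, against 24.6% of all called genes. Likewise, 0 of 6 were highest in replicate 1, against 22.4%. A second probe set of Psmc2, of nearly the same mean (11.84 against 11.87), did have that order. It was highest in replicate 1 (11.95) and lowest in replicate 3 (11.74), and the third set of Psmc2 was also lowest in replicate 3. The other sets of Psmc4 and Psmc6 above background were neither highest in replicate 1 nor lowest in replicate 3.

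All 11 non-ATPase subunits of the 19S base and lid were above background as well. Psmd2, a scaffold of the base that also binds ubiquitin-like proteins, was the most even member at 12.30, 12.30, 12.29, 12.34 and 12.30 in replicates 1 to 5. Its mean was 12.31 ± 0.020 (SD, n = 5), and its arrays lay within 1.04-fold. Psmd14, the deubiquitinase that removes the ubiquitin chain, read 12.25, 12.18, 12.19, 12.16 and 12.18, a 1.07-fold range with replicate 1 highest. Psmd4, an intrinsic ubiquitin receptor, read 12.44, 12.55, 12.25, 12.43 and 12.63, a 1.31-fold range with replicate 3 lowest. Its next probe set read 11.15, 11.23, 10.79, 11.14 and 11.31, and replicate 3 was lowest there too, but in a further probe set of lower signal (7.38, 7.54, 7.81, 7.62 and 7.78) replicate 3 was highest. Psmd7, the partner of Psmd14 in the lid, read 10.31, 10.02, 9.78, 10.06 and 9.99, a 1.45-fold range with replicate 1 highest and replicate 3 lowest. Its other probe sets did not share that order: they read 7.47, 7.63, 7.61, 7.62 and 7.45, and 6.88, 7.20, 7.23, 7.07 and 6.91, the latter lowest in replicate 1 and highest in replicate 3.

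Psmd11, which helps to hold the lid and the base together, was the only member whose arrays differed by 1 log2 unit or more in the probe set of highest mean. Without probe sets that can match several transcripts the count was 3 of the 33 members called. Psmd11 read 11.67, 12.68, 11.28, 11.73 and 11.51, a 2.64-fold range with replicate 2 high. The other 5 probe sets of the gene above background did not show a high replicate 2. The next 2 by mean read 11.57, 11.42, 11.16, 11.43 and 11.50 and 10.24, 10.10, 9.76, 10.24 and 10.17, with ranges of 1.33-fold and 1.40-fold. In both of these, replicate 2 lay between the lowest and the highest array and replicate 3 was lowest. The high value of Psmd11 in replicate 2 was thus seen in 1 of the gene's 6 probe sets above background.

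**Figure D3:**
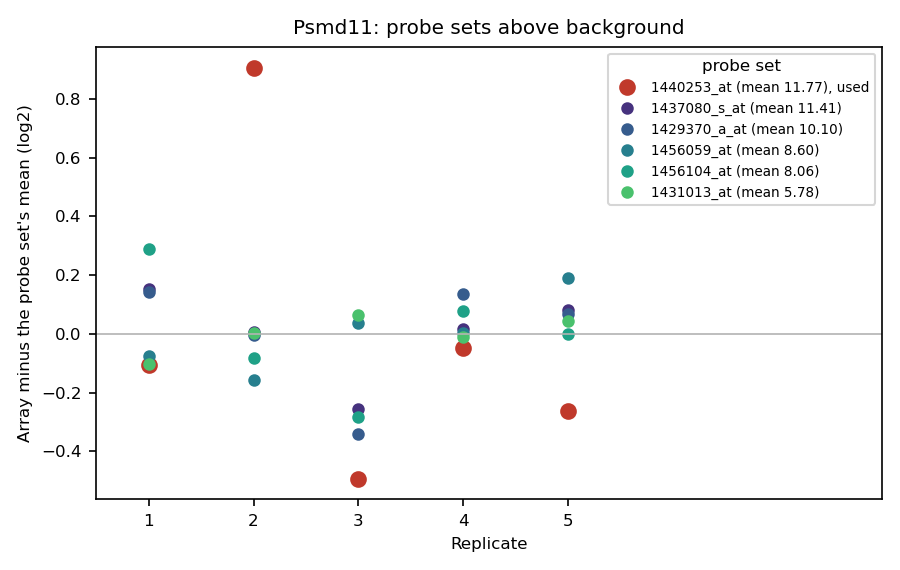
Log2 signal of each array minus the probe set's own mean (y axis) by replicate (x axis) for the 6 probe sets of Psmd11 above background; large red points are the probe set of highest mean, which represents the gene. Replicate 2 stands high in that probe set (12.68 against 11.28 to 11.73) and not in the other 5.

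The assembly chaperones of the 19S base, Psmd5, Psmd9 and Psmd10, were all above background, at 11.45 ± 0.070, 9.97 ± 0.14 and 9.67 ± 0.14 (SD, n = 5). They assist in building the cap and are not part of the finished particle. In the probe sets of highest mean, all 3 were highest in replicate 1 (22.4% of all called genes) and lowest in replicate 3 (24.6%). Their ranges were 1.13-fold, 1.28-fold and 1.28-fold. Psmd5 and Psmd10 had 1 probe set each. Psmd9 had further sets of low signal, and that of mean 7.15 had the same order. That of mean 7.02 did not: it was lowest in replicate 1 (6.70) and highest in replicate 2 (7.37).

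Of the activators, Psme1, a subunit of the interferon-inducible cap, read 13.58, 13.49, 13.45, 13.50 and 13.51, a 1.09-fold range. Psme3, which forms a nuclear cap, read 11.08, 10.84, 10.72, 10.97 and 10.84, a 1.28-fold range with replicate 1 highest and replicate 3 lowest. Its second probe set read 10.05, 9.83, 9.63, 9.88 and 9.89, with the same highest and lowest array. Psme4, a large single-chain activator, read 12.31, 12.37, 12.47, 12.45 and 12.56, and here replicate 1 was lowest and replicate 5 highest. Its other probe sets above background did not share that order. Replicate 5 was lowest in a set of mean 10.88, and replicate 1 was highest in a set of mean 9.78. In those of lower signal replicate 1 or 5 was lowest. Thus 2 of the 3 activators were lowest in replicate 3 in the probe sets of highest mean, against 24.6% of all called genes.

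The members were more even between replicates than genes above background as a whole, and much of that went with their signal. Of the 38 called members, 29 (76.3%) had arrays within 0.3 log2 units, against 36.3% of the 13540 genes called above background, and 1 had a range of at least 1 log2 unit, against 9.82%. Their median SD was 0.064, against 0.15 for all called genes. Spread falls with signal on these arrays, however, from a median SD of 0.15 for genes with means of 9 to 11 to 0.075 for genes with means of 13 to 14. Between 12 and 13, where most members lay, 17 of 21 members were within 0.3 log2 units, against 69.5% of 1424 genes, and their median SD was 0.061 against 0.097. Between 13 and 14 it was 6 of 6 against 84.7%, and between 11 and 12 it was 6 of 7 against 55.6%. Between 9 and 11 the count was 0 of 4 (Psmd7, Psmd9, Psmd10 and Psme3), against 34.8%. The F test of spread called 0 of the 40 members, and 0% of all 18194 genes, at an adjusted p under 0.05 (lowest member, Psmd11, adjusted p = 0.81). At an unadjusted p under 0.05 it called 1 member, Psmd11, against 5.58% of all genes.

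**Figure D4:**
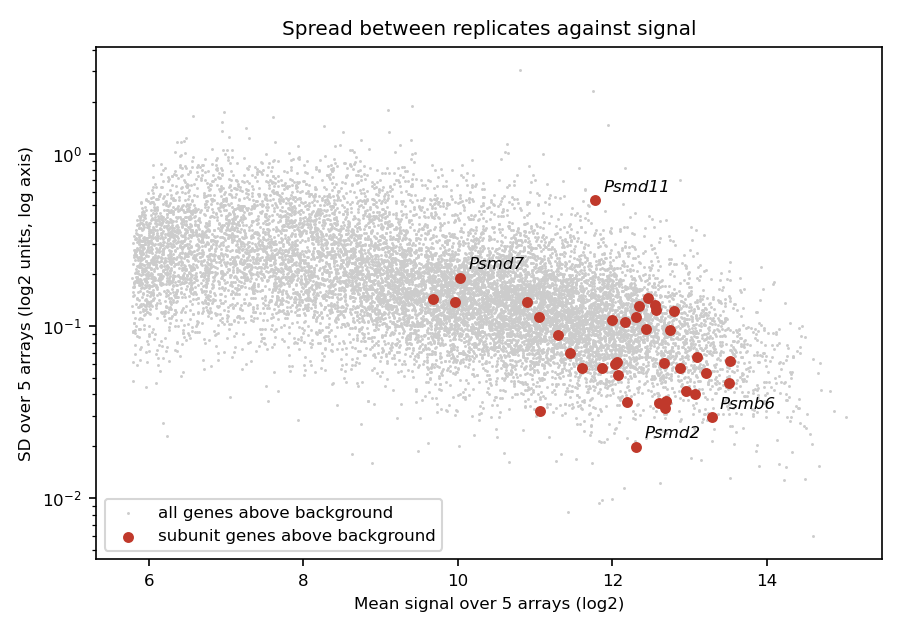
SD over the 5 arrays (y axis, log scale) against mean log2 signal (x axis) for all 13540 genes called above background (grey) and the 38 called subunit genes (red). At means above 11 the red points lie mostly in the lower part of the grey cloud (median SD of all 38 is 0.064), and Psmd11 stands above the others.

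Replicates 1 and 3 stood at the ends of the range for many subunits, in the probe sets of highest mean. Replicate 3 was the lowest array for 18 of the 38 called members (47.4%), against 24.6% of all called genes. Replicate 1 was the highest for 15 (39.5%), against 22.4%. Counts over the members' other 36 probe sets above background did not show this order. Replicate 3 was lowest in 9 and highest in 15 of them, and replicate 1 was highest in 11 and lowest in 11. These counts mix strong sets with sets of low signal (means 5.78 to 12.90). Strong sets did not share 1 order. Those of Psmb3 (mean 12.36), Psmc2 (11.84), Psmd11 (11.41 and 10.10) and Psme3 (9.86) were highest in replicate 1 and lowest in replicate 3. Those of Psma6 (12.90), Psma7 (12.47), Psmd6 (11.60), Psme4 (10.88) and Psmc6 (9.68) were highest in replicate 3, and only that of Psmc6 was lowest in replicate 1. Sets of Psmb4 (12.43), Psma5 (12.02) and Psme4 (9.78) were highest in replicate 1 but not lowest in replicate 3. That of Psmd4 (11.12) was lowest in replicate 3 but not highest in replicate 1. Those of Psmc4 (12.27), Psmd13 (10.69) and Psmb1 (9.83) were neither. With the lowest-mean probe set of each gene, replicate 3 was lowest for 11 of 31 called members, against 26.5% of called genes. By group, replicate 3 was lowest for 3 of 7 alpha, 3 of 8 beta, 0 of 6 ATPase, 7 of 11 other cap genes, 3 of 3 assembly chaperones and 2 of 3 activators. The score of an array, the average over the 38 genes of the array's difference from each gene's mean, minus the median of the same difference over all called genes, was 0.04, 0.03, −0.06, 0.00 and −0.01 in replicates 1 to 5. These scores spanned 0.098 log2 units, or 1.07-fold, and 0.051 without replicate 3 or 0.061 with the median over members. The score of replicate 2 was 0.0065 without Psmd11 and 0.0066 with the next probe set of Psmd11. The span was then 0.090 and 0.098. Scores spanned 1.04-fold for the alpha ring, 1.06-fold for the beta ring, 1.06-fold for the ATPases, 1.08-fold for the activators, 1.15-fold for the other cap genes and 1.23-fold for the assembly chaperones. Without replicate 3 the range of the other cap genes was 0.099 log2 units, against 0.20 with it, and that of the assembly chaperones 0.19, against 0.30; without replicate 1 the latter was also 0.19. The range of the other cap genes was 0.071 with the median over each gene's probe sets and 0.082 with the median over members. Without Psmd11 it was 0.16, and with the next probe set of Psmd11 it was 0.18. That of the alpha ring was 0.056, but 0.20 without probe sets that can match several transcripts and 0.035 without replicate 5, and that of the beta ring was 0.087, but 0.052 without replicate 1. Psmb8 and Psmb9 together spanned 1.97-fold. That score averages only 2 genes, with lower means of 9.78 and 8.79, and that of the assembly chaperones only 3. Spans of groups that differ in size and signal are therefore not directly comparable.

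Other measures differed in the same arrays. Replicate 3 had the largest difference between 3′ and 5′ control probe sets, at 1.67 against 1.27 to 1.60 for Gapdh and 0.845 against 0.542 to 0.599 for Actb. It also had the lowest score of mesenchymal markers, −0.72 against −0.11 to 0.39, with 8 of 8 above background and a summed level of 14.50 to 15.38. Replicate 1 had the highest bioB and bioC hybridisation controls, at 12.57 against 11.63 to 11.79, and the highest ciliated score, 0.83 against −0.44 to 0.27. The ciliated list had 8 of 8 markers above background and a summed level of 13.08 to 13.61. Tppp3 and Dnah11 of that list were not highest in replicate 1, and the others were. Tppp3, the marker of highest mean (12.63) and the largest part of the sum, read 12.45 there against 12.80 in replicate 2. Dnah11 was highest in replicate 4. The part of these measures in the order of the replicates was not tested.

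**Figure D5:**
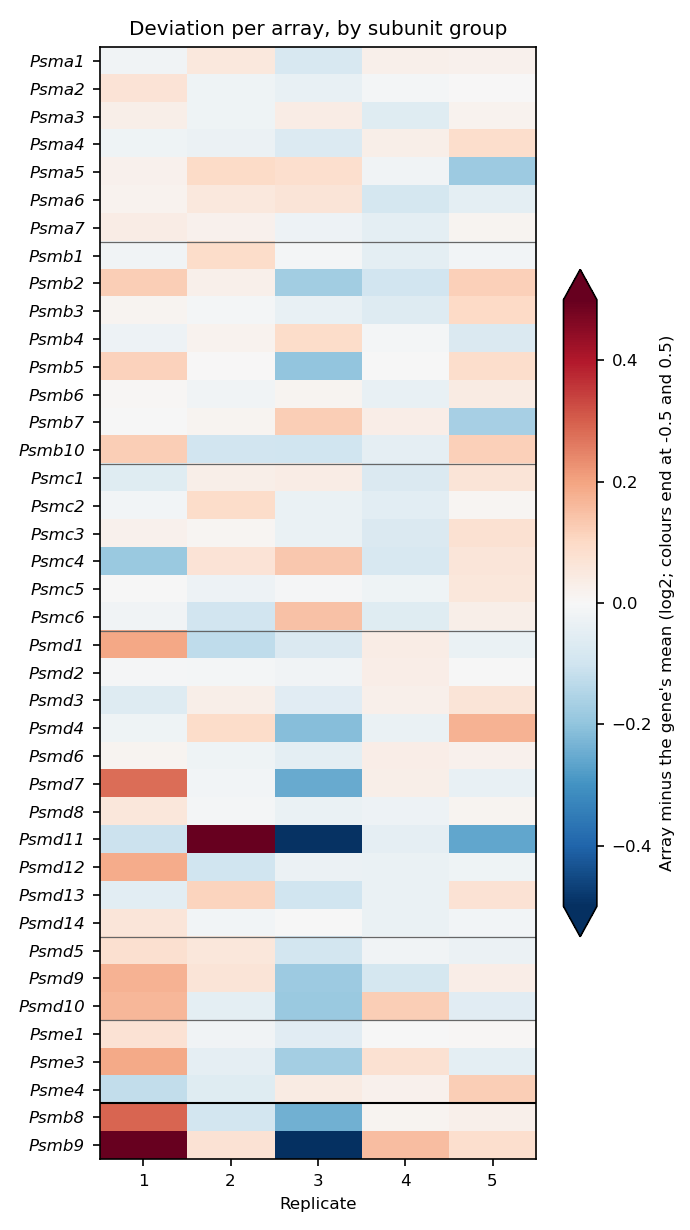
Log2 signal of each array minus the gene's own mean (colour, blue low and red high) for the 38 subunit genes above background, grouped by role with thin lines between groups, and for Psmb8 and Psmb9 below the thick line; columns are replicates 1 to 5. Each gene is shown by its probe set of highest mean. Blue is most frequent in replicate 3, the lowest array of 18 genes, and not in the block of ATPase genes. There replicate 3 was lowest for 0 of 6, though it was lowest in a second probe set of Psmc2.

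Genes that build, assist or feed the proteasome were above background too. Of a list of 44 such genes outside the member rule, 34 had a probe set with a single symbol here. All 34 were called above background (74.7% of all genes). Of them, 22 lay within 0.3 log2 units, against 36.3% of all called genes. Their median SD was 0.11, against 0.15. Spread falls with signal on these arrays, and these genes were not set against genes of like signal. The core assembly factor Pomp had 12.98 ± 0.054, and its partners Psmg1 to Psmg4 had means from 9.29 to 10.98 (SD, n = 5). Psmg4 had the widest range after Psmb9 and read 9.34, 9.43, 8.95, 9.23 and 9.54, with replicate 3 lowest. Vcp, the segregase that extracts ubiquitylated proteins, had 12.71 ± 0.086, and the deubiquitinases Usp14 and Uchl5 had 9.76 ± 0.16 and 10.58 ± 0.12. Among the known regulators, Nfe2l1 had 12.23 ± 0.11 and the NF-Y genes Nfya, Nfyb and Nfyc had 11.15 ± 0.15, 12.55 ± 0.088 and 12.56 ± 0.064. Irf1, an interferon-responsive regulator of the inducible subunits, read 11.63, 11.38, 11.68, 11.39 and 11.31. It was highest in replicate 3 and next highest in replicate 1, which were the lowest and the highest array of Psmb9. The relation of Irf1 to Psmb9 was not tested.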

How the data were processed

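One-colour Affymetrix arrays measured amplified, biotin-labelled total RNA from 5 samples, per the labels' protocols. The deposited file gives a log2 signal for every probe set; the log base was inferred from the range of 2.46 to 15.24. How the authors summarised, background-corrected and normalized the signals is not given in the sources used here. Array medians ran from 7.12 to 7.19, and values were used as deposited. Names came from the platform's 2016 annotation, in which 34958 of 45101 probe sets had 1 symbol and were kept, for 18194 genes. Members were genes named Psma, Psmb, Psmc, Psmd or Psme with a number, without Psmb8 and Psmb9, each by its probe set of highest mean. Psme2 was not analysed here, since its probe set carries several symbols.

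Background was the 95th percentile per array of 75 olfactory, taste and vomeronasal receptor genes. limma 3.58.1 (R 4.3.3) tested each of the other 18119 genes above it (intercept, eBayes with trend, one-sided, Benjamini-Hochberg). Spread between arrays was tested by a one-sided F test of each gene's variance against the variance limma fitted for that signal (4 and 4.22 degrees of freedom). On simulated data for 18119 genes, the background test recovered 57% of genes set 0.5 and 95% of genes set 1 log2 unit above background. On simulated data for 18194 genes, the F test found 7% of genes whose SD was multiplied by 5 (88% without adjustment) and 90% of those multiplied by 20. It can therefore miss moderate differences between replicates. The alternatives were other backgrounds, probe set rules, normalizations and priors, and each replicate left out in turn.

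Values in every array are printed for the catalytic subunits and their counterparts, Psma7 and Psma8, the ubiquitin receptors and deubiquitinase, the activators, members not above background, and the 4 widest and 3 narrowest ranges; any other gene or probe set named with values in every array was chosen after its values were seen. The members and gene lists were chosen with earlier results of these data known. Promoter sequences are those of RefSeq on GRCm38.p6, matched by symbol for 33 of 40 members. The number of arrays limits the precision, and arrays give no counts.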

Additional observations from a re-analysis of the deposited data

Results flagged for a closer look

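In 2 of 43 genes checked, 1 array lay apart from the others by Dixon's ratio, the gap to the nearest array divided by the range (limit 0.71 for 5 arrays); chance flags about 1 in 20. Psmc5 had a ratio of 0.712, with 11.12 in replicate 5 against 11.04 to 11.06 in the others. Psmd12, a lid subunit, had a ratio of 0.718, with 12.19 in replicate 1 against 11.90 to 11.98. Psmd11, at 0.681, lay under the limit.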

How the results depend on the processing

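The count of 38 of 40 members above background was the same after either normalization and with any 1 replicate left out. It was also the same with the median over probe sets. In those settings 72.8% to 74.9% of all genes tested were called. Without a trend the count was again 38 of 40, against 75% of all genes. It was 38 of 40 at percentiles 90 and 99 too, against 79.4% and 66.7%. With organ-restricted genes as background (8.94 to 9.36) it was 38 of 40, against 44.8%. Without probe sets that can match several transcripts it was 33 of 35, against 72.4%. With the lowest-mean probe set it was 31 of 40, against 60.3%. With that probe set Psmd11 lay below background (−1.70, limma adjusted p = 1), because another probe set was read. The count of members within 0.3 log2 units was 27 to 29 of the 38 called. It was 23 of the 33 called without probe sets that can match several transcripts. With 1 replicate left out it was 29 to 35 of the 38 called, but a range over fewer arrays can only stay equal or narrow for the same probe sets. The range of the member score was 0.051 with the median over probe sets, and from 0.051 to 0.0999 with 1 replicate left out, lowest without replicate 3; the cause of the first was not tested. The count of members with a range of at least 1 log2 unit, 1 (Psmd11), was 0 without replicate 2 and with the median over probe sets. It was 3 of the 33 called without probe sets that can match several transcripts. Replicate 3 was lowest for 15 to 22 of the 38 called members under the normalizations, the median over probe sets and the left-out replicates. The share of all called genes there ran from 25.8% to 29.2%, and it was highest where 1 replicate was left out. Without probe sets that can match several transcripts it was lowest for 16 of the 33 called, against 24.7%. With the lowest-mean probe set it was lowest for 11 of 31, against 26.5%. The F test called 0 members under every setting run for it. The settings without Psmd11 and with its next probe set were chosen after seeing the data. No paired analysis was possible because there is 1 group.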

Other observations

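Of 85 member probe sets, 74 lay above background, and 4 of these had a range of at least 1 log2 unit, each chosen after its values were seen. Besides that of Psmd11, none represented its gene. A low-signal probe set of Psma5 read 5.92, 6.07, 7.19, 5.66 and 5.98 in replicates 1 to 5, while the set used ran from 12.13 to 12.41. One of Psme4 read 7.01, 8.10, 8.15, 7.60 and 7.39, against 12.31 to 12.56, and one of Psmd13 read 6.74, 7.09, 6.98, 6.67 and 6.08, against 11.20 to 11.41. The second probe set of Psmd6, a lid subunit, read 11.70, 11.59, 11.89, 11.10 and 11.71, with replicate 4 low, whereas the set used lay between 12.63 and 12.71.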
